A study of Mus musculus with 27 samples.

Results

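The colony stimulating factors and their receptors were followed in mouse bone marrow derived macrophages (BMDMs) given a Toll-like receptor (TLR) ligand once or again after a first exposure. The 7 genes are the ligands Csf1 (M-CSF), Csf2 (GM-CSF) and Csf3 (G-CSF) and the receptor genes Csf1r, Csf2ra, Csf2rb and Csf3r. They were chosen by name, as every probe whose gene name in the array file is that of a member, which gave 13 of 55681 probes and 7 of 34844 names on the array. For a gene with several probes the probe with the highest mean level stands for the gene, and the other probes are given beside it.

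M-CSF keeps macrophages alive and drives their differentiation through Csf1r, a receptor tyrosine kinase that is among the defining genes of the lineage. GM-CSF binds a complex of the specific chain Csf2ra and the shared chain Csf2rb, which signals through Jak2 and Stat5, and it primes macrophages towards an inflammatory state. G-CSF acts through Csf3r, mainly on neutrophils and their precursors, and macrophages are a known source of it in infection.

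Cells came from the marrow of female C57BL/6 mice aged 6 to 8 weeks. They were differentiated for 7 days in medium conditioned by L929 fibroblasts, a known source of M-CSF, so every group had met the ligand of Csf1r. The study states that this medium was withdrawn before the cells adhered overnight, and that they were stimulated without growth factor. Naive cells received no ligand, acute cells 4 h of 1 ligand, and re-stimulated cells 24 h of a ligand, a wash and 4 h of the same ligand. The ligands were LPS (for TLR4) and Pam3CSK4 (TLR2) at 100 ng/ml, Poly(I:C) (TLR3) at 10 µg/ml and CpG DNA (TLR9) at 100 µM in the sample labels, while the study's methods state a lower CpG concentration. The methods give the origin of a replicate in 2 ways, as 1 mouse and as a separately made pool of marrow from several mice, and the p-values measure the spread between these cultures.

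Of 27 one-colour arrays, 3 for each of 9 groups, 25 have deposited normalized values and were used. Those without are replicate 3 of re-stimulated LPS and replicate 2 of acute Pam3CSK4, and both groups hold 2 arrays. On naive replicate 3, 74.9% of spots were well above background, against 43.1% to 55.0% on the other arrays used. The naive, CpG, Pam3CSK4, Poly(I:C) and re-stimulated LPS arrays share slides 1 to 3, where the slide is also the replicate number, but the acute LPS arrays lie on other slides that were scanned apart. For acute LPS, slide and stimulus therefore cannot be told apart. All 7 macrophage markers checked (among them Adgre1, Cd68 and Lyz2) were well above background on all 25 arrays. The arrays also differed in neutrophil markers (Ly6g, S100a8, S100a9, Mpo, Elane, Camp and Ltf), whose mean log2 level was 10.8 to 13.2 on the 15 arrays of slides 1 and 2, 5.66 to 7.64 on the 7 arrays of slide 3 and 5.67 to 6.14 on the 3 acute LPS arrays. Of these 7 markers, 3 were well above background on all 25 arrays, and 3 were higher on every array of slides 1 and 2 than on every array of slide 3. In such bulk RNA, fewer cells of a type and less RNA per cell cannot be told apart.

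Csf1 was the ligand with the clearest response. Its messenger was above background on all 25 arrays, rose with acute LPS, and was lower again in cells re-stimulated with LPS or CpG. The probe lies at chr3:107544333-107544392 (mm9, minus strand). In naive cells its log2 levels were 7.98, 8.55 and 4.44 in replicates 1, 2 and 3. With acute LPS they were 12.41, 12.14 and 12.56, well above all 3 naive arrays. With acute CpG they were 11.00, 11.41 and 10.58, and all 3 CpG arrays were also above the naive arrays. With acute Poly(I:C) the levels were 11.41, 11.65 and 10.36, again without overlap with naive cells. With acute Pam3CSK4 they were 10.81 and 6.96, so that the replicate 3 array lay among the naive values.

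**Figure D1:**
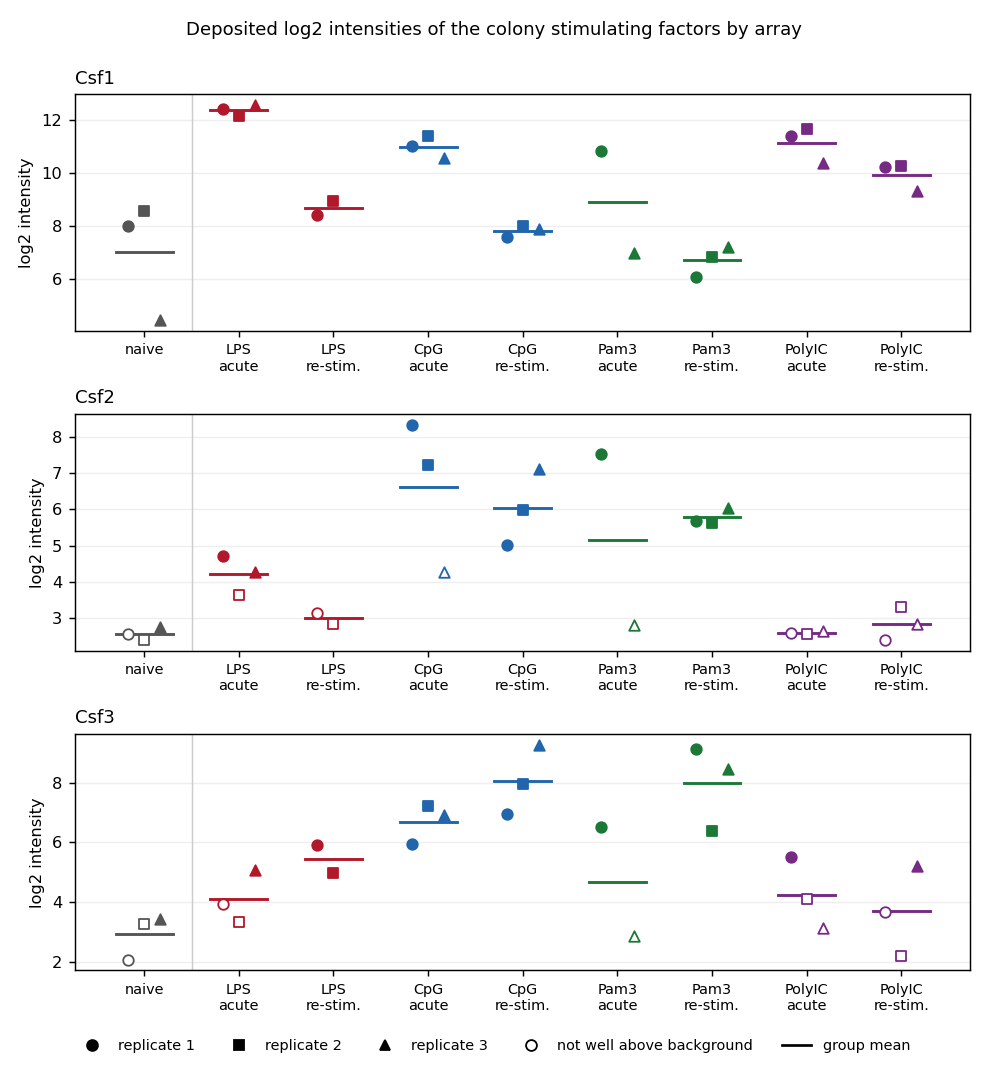
Log2 levels of Csf1, Csf2 and Csf3 in each array (points, with a marker for each replicate) and the group mean (line) over the 9 groups. Filled points are arrays on which the probe was well above background. Csf1 reached 12.14 to 12.56 with acute LPS, while Csf2 and Csf3 had their highest group means in CpG-treated cells.

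The rise of Csf1 with acute LPS was 41.6-fold (log2 difference 5.38, SE 1.04, limma adjusted p = 0.0131). Without naive replicate 3, whose Csf1 level was the lowest, it was 4.10 (adjusted p = 0.000224). The call held with each array left out, with adjusted p up to 0.0497, just under the threshold. The differences for acute CpG (4.00, SE 1.07, adjusted p = 0.0893) and acute Poly(I:C) (4.15, SE 1.11, adjusted p = 0.092) did not pass the threshold in the fit of each pair of groups. Without naive replicate 3 both passed, at 2.73 (adjusted p = 0.0116) for CpG and 2.87 (adjusted p = 0.0215) for Poly(I:C). Both also passed in 1 fit of all 9 groups (adjusted p = 0.00303 and 0.0024). Within slides Csf1 was higher than in naive cells on 3 of 3 slides for both ligands, by 2.86 to 6.14 for CpG and 3.10 to 5.92 for Poly(I:C). For Pam3CSK4 the difference was 1.89 (SE 1.71, adjusted p = 0.712), and on both shared slides Csf1 was higher, by 2.52 and 2.83.

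On re-stimulation Csf1 went the other way. Cells re-stimulated with LPS had 8.42 and 8.92, and cells re-stimulated with CpG had 7.56, 7.99 and 7.88. Neither set overlapped with its acute group. Csf1 was thus 13.0-fold lower than in acute cells for LPS (log2 difference -3.70, SE 0.25, adjusted p = 0.000513) and 9.10-fold lower for CpG (-3.19, SE 0.26, adjusted p = 0.00914). Both calls held with each array left out, with adjusted p up to 0.00503 for LPS and up to 0.0461 for CpG. With all 27 arrays the LPS call was lost (adjusted p = 0.0984). Against naive cells the levels on re-stimulation differed by 1.68 for LPS (adjusted p = 0.471) and 0.82 for CpG (adjusted p = 0.631). Naive, acute and re-stimulated comparisons share arrays and are given side by side.

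Among re-stimulated cells the Csf1 difference between Pam3CSK4 and Poly(I:C) was the 1 of 6 between ligands that passed. The log2 levels were 10.21, 10.27 and 9.31 in cells re-stimulated with Poly(I:C), against 6.08, 6.83 and 7.19 with Pam3CSK4. The 2 groups did not overlap. The difference between them was 9.41-fold (Pam3CSK4 minus Poly(I:C) -3.23, SE 0.86, adjusted p = 0.0167 in the fit of all 9 groups). It was lost when Pam3CSK4 re-stimulated replicate 1 (adjusted p = 0.0734) or Poly(I:C) re-stimulated replicate 1 (0.0725) or 2 (0.0664) was left out, and with all 27 arrays (0.327). CpG minus Poly(I:C) was -2.12 (SE 0.86, adjusted p = 0.133, and 0.039 without naive replicate 3) and LPS minus Poly(I:C) -1.26 (SE 0.96, adjusted p = 0.652). Against naive cells the Poly(I:C) level was 2.94 higher (SE 1.09, adjusted p = 0.148), without overlap, and 1.67 higher (adjusted p = 0.041) without naive replicate 3. Between acute and re-stimulated Poly(I:C), Csf1 differed by -1.21 (SE 0.43, adjusted p = 0.142), and with the replicate number as a block by the same amount with an adjusted p of 0.0405, which passed. It was lower on 3 of 3 slides, by 1.05 to 1.38. For Pam3CSK4 the corresponding difference was -2.18 (adjusted p = 0.451), with 1 of 2 slides lower.

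Csf1 has 3 more probes, and they did not all follow the brightest one. A pair of overlapping probes is annotated to another Csf1 transcript and was above background on 23 and 22 of 25 arrays. Their acute LPS differences were 3.25 (adjusted p = 0.0554) and 3.05 (adjusted p = 0.0951). Re-stimulated minus acute LPS was -0.65 (adjusted p = 0.055) and -0.61 (adjusted p = 0.0619), against -3.70 for the brightest probe. Re-stimulated minus acute CpG was -2.13 (adjusted p = 0.103) and -1.99 (adjusted p = 0.0758), so that the call of the brightest probe (-3.19) was not met by either. In re-stimulated against acute Poly(I:C) they were 0.42 and 0.30 higher (adjusted p = 0.761 and 0.828), where the brightest probe was lower. The fourth probe was above background on 0 of 25 arrays. The plot of the probes' group means shows this split.

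**Figure D2:**
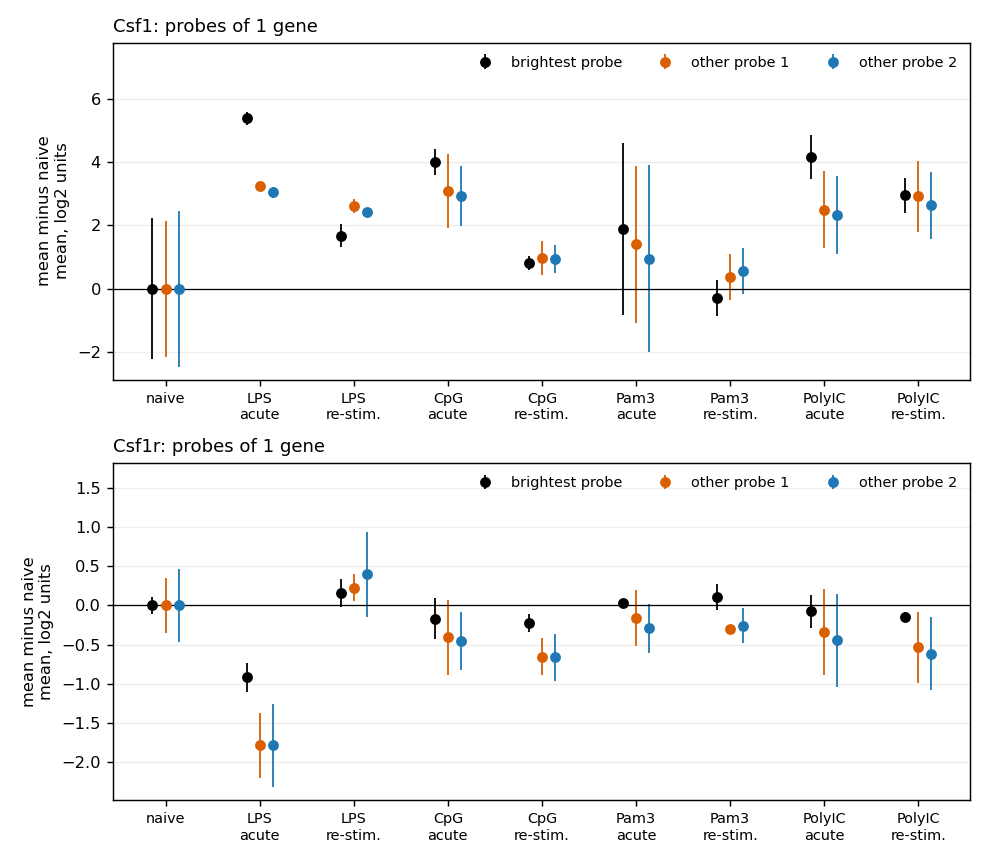
Group mean minus naive mean in log2 units for 3 probes of Csf1 and the 3 probes of Csf1r over the 9 groups, with bars for the SD over the arrays of the group. In re-stimulated LPS cells the overlapping Csf1 probes lay 2.60 and 2.43 above their naive means and the brightest probe 1.68 above its own. All 3 Csf1r probes were lowest with acute LPS.

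The promoter of Csf1 is shown because Csf1 was the member that moved furthest with LPS. The 250 bases before the RefSeq start of Csf1 lie at chr3:107760470-107760719 (GRCm38.p6, minus strand). Capitals mark a match to the NF-κB consensus, on the strand opposite to the one printed, from 154 to 145 bases before the start, a motif found in 4.51% of 32851 RefSeq promoter windows of 300 bases. The corresponding 250 bases of Csf2, at chr11:54249900-54250149 (GRCm38.p6, minus strand), are set beside it. There the capitals mark a match to the C/EBP motif TTNNGNAA on the opposite strand, from 145 to 138 bases before the start, a motif in 40.7% of windows.
Csf1: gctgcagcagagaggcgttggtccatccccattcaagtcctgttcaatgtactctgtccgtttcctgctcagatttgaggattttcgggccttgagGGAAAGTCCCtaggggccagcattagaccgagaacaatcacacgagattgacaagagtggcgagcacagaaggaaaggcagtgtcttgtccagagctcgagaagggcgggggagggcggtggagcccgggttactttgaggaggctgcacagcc
Csf2: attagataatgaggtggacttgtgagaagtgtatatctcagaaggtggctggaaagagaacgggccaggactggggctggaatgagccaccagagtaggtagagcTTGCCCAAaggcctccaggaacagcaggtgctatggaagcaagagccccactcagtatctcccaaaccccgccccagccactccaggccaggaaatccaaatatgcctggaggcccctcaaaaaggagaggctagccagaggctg
The search covered both strands for these motifs and for the CK-1 core GAGATTC (3.09% of windows), AP-1 TGANTCA (7.81%), the ISRE (3.44%) and the TATA box TATAAA (13.6%), and no other match was found in these windows. A match describes letters only, and nothing about a factor follows from it. Csf3 has no window in the table used.

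Csf2 was near background in naive cells and was raised in cells re-stimulated with CpG or Pam3CSK4. Its probe is listed at chr11:54060772-54060799 (mm9, minus strand). The naive log2 levels were 2.56, 2.41 and 2.76, above background on 1 of 3 arrays. In cells re-stimulated with CpG they were 5.01, 5.98 and 7.12, and with Pam3CSK4 5.68, 5.63 and 6.04, above background on all 6 arrays. Neither group overlapped with naive cells. The rise over naive was 3.46 log2 units for CpG (SE 0.52, adjusted p = 0.0158) and 3.21 for Pam3CSK4 (SE 0.20, adjusted p = 0.00736). No fold is given, since 2 of 3 naive arrays were not well above background. With normexp correction the differences were 1.03 (adjusted p = 0.0272) and 0.85 (adjusted p = 0.0118). The CpG call was lost without CpG re-stimulated replicate 2 and without naive replicate 1 or 2 (adjusted p 0.0541 to 0.0654). The Pam3CSK4 call was lost without Pam3CSK4 re-stimulated replicate 1 (adjusted p = 0.0564) and with the replicate number as a block (adjusted p = 0.0546).

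Acute stimulation gave less even Csf2 levels. With acute CpG they were 8.32, 7.22 and 4.27, all above the naive arrays but spread over 4 log2 units. The difference of 4.03 (SE 1.00, adjusted p = 0.0752) did not pass, and without CpG acute replicate 3 it was 5.20 (adjusted p = 0.0113). With acute Pam3CSK4 the levels were 7.52 and 2.81, above background on 1 of 2 arrays, and no test was made. Acute LPS gave 4.72, 3.63 and 4.27, 1.63 log2 units above naive (SE 0.31, adjusted p = 0.0124). That call held without any of the 3 naive arrays or LPS acute replicate 2 (adjusted p 0.00926 to 0.0455), and without LPS acute replicate 1 or 3 the probe was not tested. It was lost with median scaling, the 75th percentile, normexp, 1 fit of 9 groups and slide as a random block (adjusted p 0.0693 to 0.21), at 0.36 with normexp. Cells re-stimulated with LPS had 3.14 and 2.85, above background on 0 of 2 arrays. The difference from acute LPS was -1.21 log2 units (adjusted p = 0.0378). No fold is given, since neither re-stimulated array was well above background. The call was lost without either LPS re-stimulated array (adjusted p 0.0956 and 0.169). With normexp it was also lost, at -0.25 (adjusted p = 0.182). With Poly(I:C) the 6 arrays lay between 2.41 and 3.30 and none was above background.

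The 10 spots of the Csf2 probe on an array varied more than those of the Csf1 probe. Their SD was 0.346 log2 units at the median array and up to 1.98 for Csf2, against 0.0941 and up to 0.218 for Csf1.

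Csf3 had its highest group means in cells re-stimulated with CpG or Pam3CSK4. The probe lies at chr11:98564614-98564673 (mm9, plus strand). Naive cells had log2 levels of 2.07, 3.27 and 3.44, with 1 of 3 arrays above background. Cells re-stimulated with CpG had 6.96, 7.95 and 9.27, and those with Pam3CSK4 9.12, 6.37 and 8.47. All 6 arrays were far above the naive ones. Csf3 was above naive by 5.13 log2 units after CpG re-stimulation (SE 0.66, adjusted p = 0.011) and by 5.06 after Pam3CSK4 re-stimulation (SE 0.77, adjusted p = 0.0302). No fold is given, since 2 of 3 naive arrays were not well above background, and with normexp correction the differences were 2.24 (adjusted p = 0.0108) and 2.21 (adjusted p = 0.0282). On shared slides it was higher on 3 of 3 for both, by 4.68 to 5.83 and by 3.09 to 7.05. The CpG call was lost without CpG re-stimulated replicate 2 (adjusted p = 0.0509). The Pam3CSK4 call was lost without Pam3CSK4 re-stimulated replicate 1 or 3 or naive replicate 1 or 2 (adjusted p 0.0672 to 0.118) and with the replicate number as a block (adjusted p = 0.0717).

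With acute CpG the Csf3 levels were 5.95, 7.21 and 6.93, 3.77 log2 units above naive (SE 0.49, adjusted p = 0.0189), or 1.25 (adjusted p = 0.0144) with normexp. It was lost without CpG acute replicate 1 or 2 or naive replicate 1 or 2 (adjusted p 0.0539 to 0.0894). Between acute and re-stimulated CpG, Csf3 differed by 1.36 (SE 0.62, adjusted p = 0.262) and was higher on 3 of 3 slides, by 0.74 to 2.34. Csf1 in the same cells had the opposite sign. With acute Pam3CSK4 the levels were 6.51 and 2.86. On re-stimulation Csf3 was 3.30 higher (adjusted p = 0.347), on 2 of 2 slides.

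With LPS the Csf3 levels were 3.92, 3.33 and 5.07 in acute cells, above background on 1 of 3 arrays, and 5.90 and 4.97 in re-stimulated cells, above background on both. The difference from acute to re-stimulated cells was 1.33 (SE 0.54, adjusted p = 0.105), and 1.81 (adjusted p = 0.021) without LPS acute replicate 3. Re-stimulated cells differed from the 3 naive arrays by 2.51 (SE 0.54, adjusted p = 0.0657). Without naive replicate 3, which leaves the slides that both groups share, the difference was 2.77 (adjusted p = 0.0199), with 1.70 and 3.83 on the single slides. Poly(I:C) gave 5.50, 4.11 and 3.12 in acute and 3.67, 2.20 and 5.20 in re-stimulated cells. These arrays overlapped with each other and with naive cells, and 1 of 3 was above background in each group.

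Csf1r was the brightest member, and its brightest probe varied little. The levels of that probe lay between 17.54 and 18.30 on all 22 arrays other than acute LPS and between 16.96 and 17.29 with acute LPS. The naive arrays had 18.07, 18.04 and 17.87, and the acute LPS arrays 16.99, 16.96 and 17.29. Every acute LPS array was below every other array. The fall was 1.89-fold (log2 difference -0.92, SE 0.19, adjusted p = 0.0163), and re-stimulated LPS cells, with 18.03 and 18.28, were 2.10-fold higher than acute cells (1.07, SE 0.22, adjusted p = 0.0126). The 2 dimmer Csf1r probes moved further, by -1.79 (adjusted p = 0.00824) and -1.79 (adjusted p = 0.0152) with acute LPS and by 2.01 (adjusted p = 0.00417) and 2.18 (adjusted p = 0.00797) from acute to re-stimulated LPS. The first call of the brightest probe was lost without LPS acute replicate 1 or 2 or naive replicate 1 or 2 (adjusted p 0.0553 to 0.0712). It was also lost with median scaling (-0.60, adjusted p = 0.685) and with the replicate number as a block (0.0572). The second was lost without LPS re-stimulated replicate 2 (0.95, adjusted p = 0.0827) and with all 27 arrays (0.078). With acute CpG, Pam3CSK4 and Poly(I:C), Csf1r differed from naive by -0.17, 0.03 and -0.08, with adjusted p from 0.675 to 0.967.

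**Figure D3:**
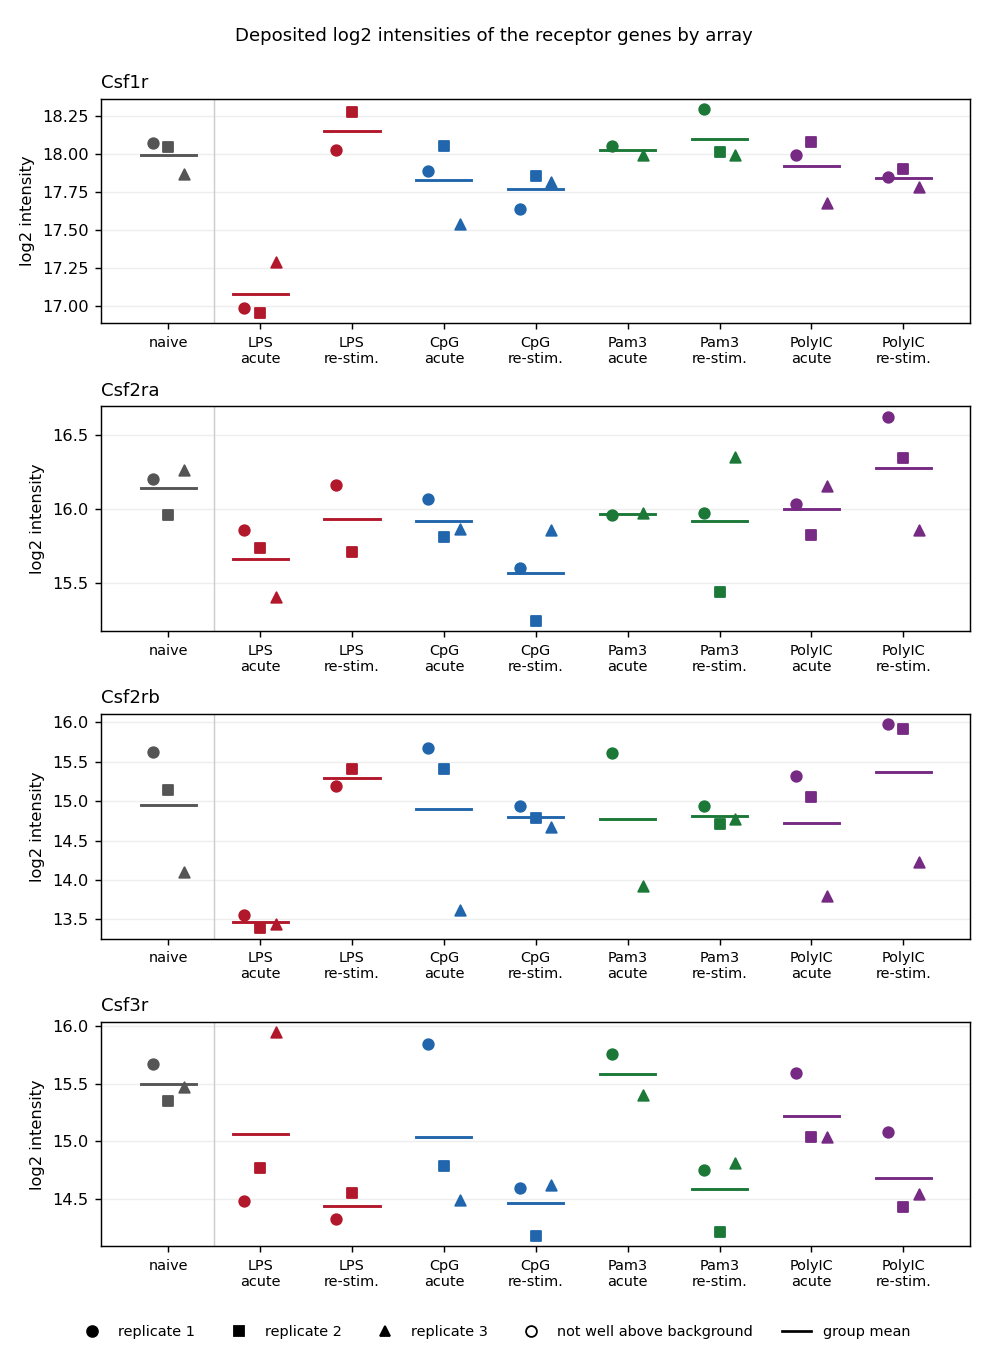
Log2 levels of Csf1r, Csf2ra, Csf2rb and Csf3r in each array (points) with the group mean (line) over the 9 groups. The acute LPS arrays were the lowest for Csf1r (16.96 to 17.29) and for Csf2rb (13.39 to 13.56), and the re-stimulated groups lay below the naive group for Csf3r.

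Csf2rb, the signalling chain shared by the receptors for GM-CSF, interleukin 3 and interleukin 5, fell with acute LPS and was higher in re-stimulated LPS cells. The probe lies at chr15:78181168-78181227 (mm9, plus strand). Naive cells had 15.62, 15.15 and 14.10, acute LPS cells 13.56, 13.39 and 13.44, and re-stimulated LPS cells 15.19 and 15.41. The acute LPS arrays overlapped with neither group. The fall was 2.82-fold (log2 difference -1.49, SE 0.39, adjusted p = 0.0353), and the rise from acute to re-stimulated LPS 3.56-fold (1.83, SE 0.20, adjusted p = 0.0017). A second probe of the gene gave -1.66 (adjusted p = 0.0319) and 2.10 (adjusted p = 0.00221). The first call was lost without any of the 3 acute LPS arrays and without naive replicate 1 or 2 (adjusted p 0.0763 to 0.109). It was also lost with median scaling (-0.95, adjusted p = 0.424) and the 75th percentile (0.107). The same held with no detection filter (0.0636) and with the replicate number as a block (0.0551). The second call held with each array left out (adjusted p up to 0.0176) and was lost with all 27 arrays (0.0745). Csf2rb2, a closely similar copy that serves interleukin 3 alone, was also 1.81 higher (adjusted p = 0.00207), and cross-hybridization between the copies was not tested.

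Csf2rb also differed between slides within the groups, and the neutrophil markers differed with it. On slide 3 all 7 arrays were below their group mean, by 0.74 log2 units on average. Csf2rb was 14.71 to 15.97 on the 15 arrays of slides 1 and 2, 13.62 to 14.77 on the 7 arrays of slide 3 and 13.39 to 13.56 on the acute LPS arrays. The mean level of the 7 neutrophil markers followed the same order of slides and was 11.7, 12.3 and 5.66 in naive replicates 1, 2 and 3, against 5.67 to 6.14 with acute LPS and 11.2 and 11.5 with re-stimulated LPS. The mast cell and basophil markers (Cpa3, Fcer1a and Mcpt8) had mean levels of 2.80 to 6.44 on slides 1 and 2, 2.42 to 2.83 on slide 3 and 2.39 to 2.67 with acute LPS. Naive replicate 3, the naive array with low neutrophil markers, had 14.10 for Csf2rb, and the 3 acute LPS arrays lay below it. Without that array the acute LPS difference of Csf2rb was -1.92 (adjusted p = 0.00137). The part of these markers in the Csf2rb result was not tested. For Csf1r the corresponding ranges were 17.64 to 18.30 on slides 1 and 2 and 17.54 to 18.00 on slide 3, which overlapped, and acute LPS lay below both. Csf1r was still below its group mean on 6 of 7 slide 3 arrays (mean deviation -0.12), and Csf1 on 5 of 7 (-0.82). The second Csf1r probe had 14.37, 14.29 and 13.50 in acute CpG replicates 1, 2 and 3 and 14.51, 14.35 and 13.49 with acute Poly(I:C). With re-stimulated Pam3CSK4 that probe had 14.19, 14.14 and 14.17.

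Csf2ra, the GM-CSF specific chain, was called in no comparison. Its levels lay between 15.24 and 16.63 on all 25 arrays, at chr19:61300336-61300395 (mm9, minus strand). The naive arrays had 16.21, 15.96 and 16.27 and the arrays of cells re-stimulated with CpG 15.60, 15.24 and 15.86, the lowest group mean. These did not overlap, and the difference of -0.58 (SE 0.22, adjusted p = 0.132) did not pass. With acute LPS the difference was -0.48 (SE 0.21, adjusted p = 0.134). Between re-stimulated CpG and Poly(I:C) cells the difference of -0.71 had an adjusted p of 0.063 in the fit of all 9 groups. It passed with the replicate number as a block (0.032), with slide as a random block (0.0226) and with normexp correction (0.037).

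Csf3r, the G-CSF receptor, was lower in re-stimulated than in naive cells with all 4 ligands, and the difference passed the test for CpG. Naive cells had 15.67, 15.35 and 15.47. The re-stimulated arrays had 14.32 and 14.55 with LPS, 14.59, 14.18 and 14.62 with CpG, 14.75, 14.21 and 14.81 with Pam3CSK4 and 15.09, 14.43 and 14.54 with Poly(I:C). All 11 lay below the naive arrays. The fall for CpG was 2.04-fold (log2 difference -1.03, SE 0.20, adjusted p = 0.0271). The other differences were -1.06 for LPS (adjusted p = 0.0543), -0.90 for Pam3CSK4 (adjusted p = 0.0773) and -0.81 for Poly(I:C) (adjusted p = 0.0894), all 4 against the same naive arrays. On shared slides Csf3r was lower on every one, by 0.58 to 0.92 with Poly(I:C), 0.66 to 1.13 with Pam3CSK4, 0.80 to 1.34 with LPS and 0.85 to 1.17 with CpG. Without naive replicate 3 the LPS difference was -1.07 and passed (adjusted p = 0.0225). Acute LPS cells had 14.49, 14.77 and 15.95, and without the last, replicate 3, they were also below naive cells (-0.87, adjusted p = 0.0403). The CpG call was lost without any of the 3 CpG re-stimulated arrays or naive replicate 1 or 2 (adjusted p 0.0652 to 0.0886). The direction rested on the scaling of the arrays: with median scaling the CpG difference was 0.26 (adjusted p = 0.77) and that for Poly(I:C) 0.13, where the median change of all probes was itself 0.779 and 0.535, while with normexp correction all 4 ligands passed, at -1.05, -1.02, -0.93 and -0.82. With slide as a random block all 4 passed too, LPS at an adjusted p of 0.0224, CpG at 0.0134, Pam3CSK4 at 0.0298 and Poly(I:C) at 0.0466.

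The Csf3r probe, at chr4:125721478-125721537 (mm9, plus strand), ends in bases that other probes of the array share. Its last 30 bases are printed here with the 25 that were compared in capitals.
Csf3r probe, bases 31 to 60: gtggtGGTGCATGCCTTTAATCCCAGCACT
This stretch resembles the B1 repeat, a short element scattered through many mouse transcripts. Of the 55681 probes, 6 others hold the same 25 bases with at most 4 mismatches, at any position in the probe. These probes are annotated to TC1653005 (0 mismatches and a run of 30 identical bases), Slc10a1 (2 mismatches) and an Ensembl transcript without a gene name (3). The others are annotated to C330006K01Rik, Heatr3 and Mlxipl (4 each). The 6 probes were sought after the values of Csf3r had been seen. Across the 9 group means their correlation with the Csf3r probe was 0.917 to 0.978, as a description of points that share arrays, slides and scaling, and 0.647% of the 20403 probes above background on every array had an r of 0.917 or more. In CpG re-stimulated against naive cells these 6 probes differed by -0.49 to -1.13 and in LPS re-stimulated cells by -0.76 to -1.20. Rn4.5s, a small RNA related to the B1 element, differed by -0.95 in both. It was taken from the genes whose group means ran most like Csf3r (r = 0.984), so its like values follow from that choice. Its probe had 12 mismatches in the 25 bases and a longest identical run of 5 bases, so it does not hold the shared stretch. The part of the sequence shared by the 6 probes in the Csf3r signal was not tested. The neutrophil markers, whose cells express Csf3r, had mean levels of 5.66 to 12.3 in naive cells and 7.63 to 11.3 in cells re-stimulated with CpG, ranges that overlapped.

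**Figure D4:**
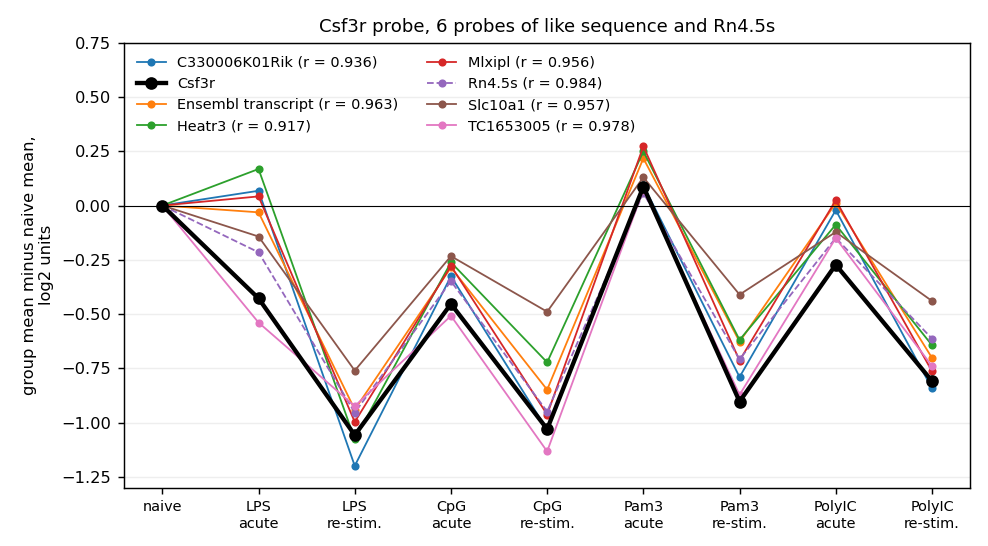
Group mean log2 level minus the naive mean over the 9 groups. Lines show the Csf3r probe (black), the 6 probes that hold nearly the same 25 bases and Rn4.5s (dashed). Rn4.5s does not hold these bases and was picked for its like pattern. Each probe's r to the Csf3r probe over the 9 group means is given. All lines lay below 0 in the 4 re-stimulated groups.

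Counted over the family, acute LPS moved 4 of 6 members tested, with Csf1 and Csf2 higher and Csf1r and Csf2rb lower. Over all probes tested 26.5% were called in that comparison (13.2% higher and 13.2% lower). Of the probes called 49.9% were higher, and 67.6% with median scaling. With median scaling 1 member rose and 0 fell, with normexp correction 1 rose and 2 fell, and with the 75th percentile 1 rose and 1 fell. Acute CpG moved 1 of 7 (Csf3, higher), against 5.72% of probes (3.09% higher), and 3 rose with median scaling and 2 with normexp correction. Acute Pam3CSK4 moved 0 of 5, with 0 at an unadjusted limma p under 0.05, and 0% of probes. Acute Poly(I:C) moved 0 of 5, with 1 at an unadjusted limma p under 0.05, against 6.03% of probes.

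Between acute and re-stimulated cells, LPS moved 4 of 7 members, Csf1, Csf2, Csf1r and Csf2rb as in acute LPS and each in the opposite direction, in comparisons that share the acute LPS arrays. The share over all probes was 34.2% (17.2% higher and 17% lower). With median scaling 3 rose and 1 fell, and with normexp correction 2 rose and 1 fell. CpG moved 1 of 7 (Csf1, lower), against 3.56% of probes (1.71% lower). Pam3CSK4 moved 0 of 7, with 2 at an unadjusted limma p under 0.05 and 0% of probes, and Poly(I:C) moved 0 of 5, with 1 at an unadjusted limma p under 0.05 and 4.93% of probes. Between naive and re-stimulated cells CpG moved 3 of 7 (Csf2 and Csf3 up, Csf3r down), against 13.2% of probes (6.69% higher and 6.48% lower), and Pam3CSK4 2 of 7 (Csf2 and Csf3 up), against 5.36% (2.61% higher). With median scaling or the 75th percentile CpG moved 2 up and 0 down, Pam3CSK4 moved 1 up with the 75th percentile, and with normexp 2 up and 2 down for CpG and 2 up and 1 down for Pam3CSK4. LPS moved 0 of 6 there (5.67% of probes) and Poly(I:C) 0 of 5 (9.03%), with 2 members each at an unadjusted limma p under 0.05. Median scaling raised the share of higher calls over all probes from 50.8% to 84.8% for re-stimulated CpG, from 48.8% to 71.3% for Pam3CSK4, from 57.8% to 75.8% for LPS and from 53.1% to 83.4% for Poly(I:C), and from 54.0% to 92.3% and 63.0% to 91.8% for acute CpG and Poly(I:C). For re-stimulated against acute CpG and Poly(I:C) it raised it from 52.1% to 68.5% and from 46.9% to 65.6%, and the 75th percentile lowered it for acute CpG to 43.1%.

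**Figure D5:**
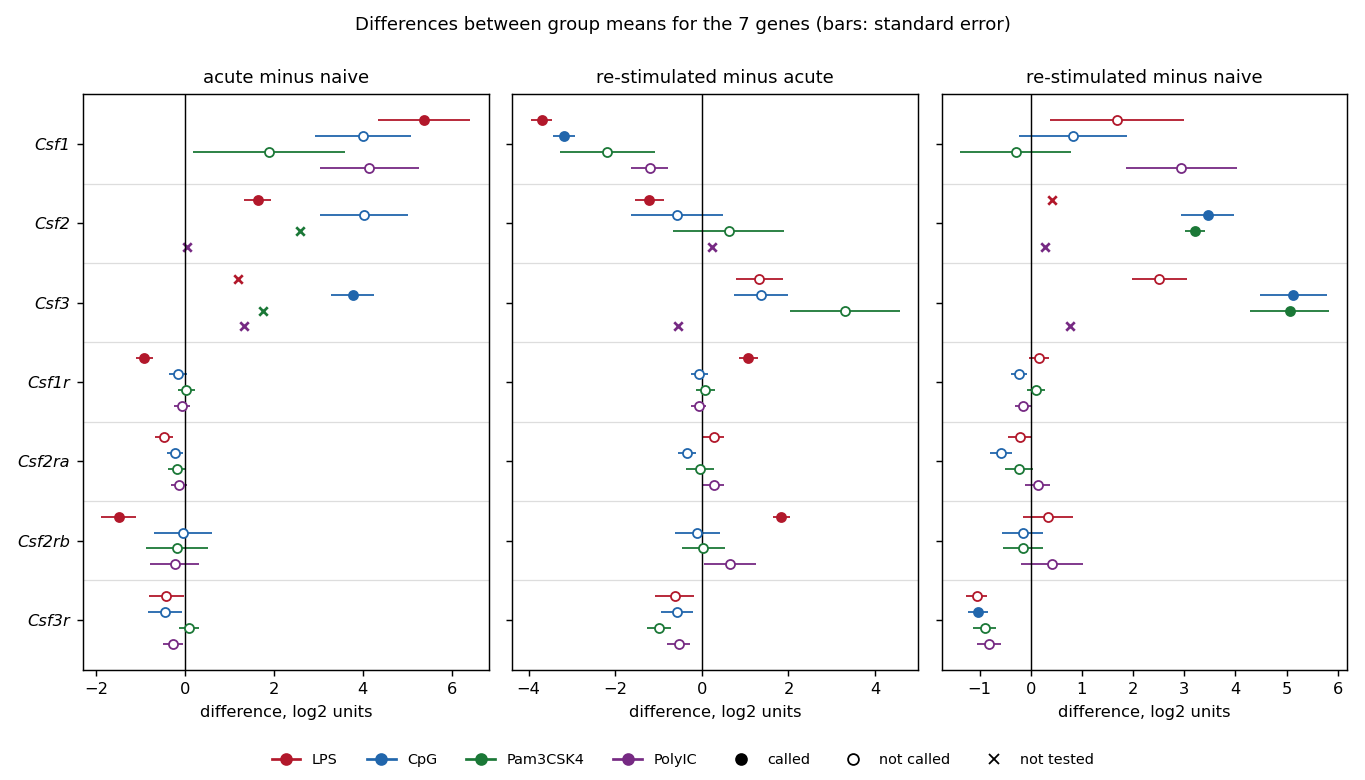
Log2 differences of the 7 members in the 12 comparisons of 2 groups, in 3 panels, with bars for the SE of the limma fit, filled points for calls at an adjusted p under 0.05 and 1.5-fold, and crosses for members that were not tested. The ligands had the widest differences (-3.70 to 5.38), and Csf2ra had no call.

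The ligands were also compared with each other at the same time points, in 1 limma fit of the 9 groups, for 126 member differences over 18 contrasts. In acute cells 5 of 38 tested differences passed, 3 of them for Csf1r, which was lower with LPS than with CpG, Pam3CSK4 and Poly(I:C). Over all probes 17.2%, 19.7% and 11.8% were called in these contrasts. The other acute differences that passed were Csf1 between LPS and Pam3CSK4 and Csf2 between CpG and Poly(I:C) (5.07% of probes). In re-stimulated cells 5 of 41 passed, and all were against Poly(I:C). Csf2 and Csf3 were higher with CpG and with Pam3CSK4 than with Poly(I:C), and Csf1 was lower with Pam3CSK4. Csf3 was higher by 4.37 log2 units with CpG (SE 0.95, adjusted p = 0.00686) and by 4.29 with Pam3CSK4 (SE 0.95, adjusted p = 0.00502) than with Poly(I:C), where 1 of 3 arrays was above background. With normexp these were 2.00 and 1.98, and both still passed. Over all probes 8.88% were called between re-stimulated CpG and Poly(I:C), and 12.8% between re-stimulated Pam3CSK4 and Poly(I:C). Of the changes from acute to re-stimulated cells, 3 of 42 differed between ligands, all for Csf1r, whose rise with LPS stood against -0.06 with CpG (7.24% of probes called), 0.08 with Pam3CSK4 (8.2%) and -0.07 with Poly(I:C) (4.09%). In the 9 contrasts without a called member the share of probes called ran from 0.00378% to 8.05%.

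Genes of the wider pathway were counted from lists of names, in the fits of group pairs. Of 7 genes known as Stat5 targets, acute LPS raised 4 and acute CpG raised 4, with list medians of 2.23 and 2.41 against medians of -0.00978 and -0.0696 over all probes, of which 13.2% and 3.09% were called higher. Cish, a feedback inhibitor of cytokine receptors, was 3.76 higher with acute LPS (adjusted p = 0.00452) and 4.26 higher with acute CpG (adjusted p = 0.0295). Pim1, a survival kinase, was higher by 3.04 (adjusted p = 0.000925) and 2.41 (adjusted p = 0.00666), and Ccnd2, a cyclin, by 5.35 (adjusted p = 0.00103) and 2.99 (adjusted p = 0.0263). These 3 genes were lower again from acute to re-stimulated cells with both ligands, Cish with differences of -2.65 and -3.06 (adjusted p = 0.00354 and 0.039). With LPS 2 genes of the list were called higher and 3 lower, against 17.2% and 17% of all probes. With CpG 0 were higher and 3 lower, against 1.71% of all probes called lower. The list medians in these comparisons were -0.65 and -0.82. Ccl17, a chemokine that GM-CSF is known to induce, was higher than in naive cells with acute LPS (2.23, adjusted p = 0.0112) and acute CpG (4.01, adjusted p = 0.0153) and after re-stimulation with CpG (3.19, adjusted p = 0.019) and Pam3CSK4 (3.22, adjusted p = 0.0324).

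Of 22 genes that carry or restrain the receptors' signals, Cish among them, acute LPS raised 9 and lowered 3 (median 0.69) and acute CpG raised 4 and lowered 1 (median 0.45), where 26.5% and 5.72% of all probes were called. Jak2, the kinase bound to Csf2rb, was higher than in naive cells in 7 of 8 comparisons, by 2.26 to 3.07, the exception being acute Pam3CSK4. Socs1, an inhibitor of such kinases, was higher by 5.96 with acute LPS, 4.63 with CpG and 6.69 with Poly(I:C) (adjusted p = 0.000226, 0.0163 and 0.00109). Socs3, which restrains the G-CSF receptor, was higher than in naive cells in 5 of 8 comparisons. The differences were 5.66 with acute LPS (adjusted p = 0.00999), 7.50 with acute CpG (0.0239), 4.96 with acute Poly(I:C) (0.0495), 7.01 after CpG re-stimulation (0.0151) and 6.07 after Pam3CSK4 re-stimulation (0.0345). From acute to re-stimulated LPS this list had 1 higher and 7 lower genes (median -0.21), where 34.2% of all probes were called, 17.2% higher and 17% lower.

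Of 7 transcription factors measured that are known to act on the receptor genes, acute LPS lowered 4 and raised 1 (median -1.06), against 13.2% of all probes in each direction. Cebpa, which acts in myeloid differentiation, differed by -4.45 (adjusted p = 0.00103) and was then 3.30 higher in re-stimulated than in acute LPS cells (adjusted p = 0.000387). Cebpb, a relative of Cebpa, differed by -1.06 (adjusted p = 0.0107) and 2.56 (adjusted p = 0.000679), and Runx1 by -1.42 (adjusted p = 0.0247) and 1.97 (adjusted p = 0.00348) in the same comparisons. These compare the acute LPS arrays, whose neutrophil markers were low, with arrays where they were mostly high, and the part of that in these values was not tested. Etv3, a repressor of macrophage growth, went the other way, 1.20 higher (adjusted p = 0.0235) with acute LPS and then differing by -2.32 (adjusted p = 0.00293). Of 8 regulators of the stability of such messengers, acute LPS raised 2 and lowered 2 (median 0.24), against the same 13.2% in each direction. Zfp36 (tristetraprolin), which marks Csf2 messenger for decay, was 2.48 higher with acute LPS (adjusted p = 0.0213) and 2.81 higher with acute CpG (adjusted p = 0.0485), while its relatives Zfp36l1 and Zfp36l2 had differences of -4.23 (adjusted p = 0.00503) and -3.59 (adjusted p = 0.00264) with acute LPS. Zc3h12a, an endonuclease that degrades inflammatory messengers, was 2.68 higher with acute LPS (adjusted p = 0.0334). Of 10 related ligands and receptors, 7 were tested with acute LPS (median -0.22). Of these 1 rose, against 13.2% of all probes called higher, a share near that of the list. It was Kitl, the ligand of the receptor Kit (2.30, adjusted p = 0.0212).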

How the data were processed

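RNA of 27 BMDM cultures was labelled with Cy3 and hybridized to 1-colour Agilent mouse arrays of 62976 spots. The authors deposited the scanner intensity of every spot, without normalization, and a table of log2 values for 25 arrays, which per the study's methods and the labels they made with RMA background correction and quantile normalization in limma. The other 2 arrays were left out by the authors for low quality. The deposited log2 values are the main values here. Rebuilding them from the intensities (median signal minus median local background, then the same steps) gave a median absolute difference of 0.0375. Groups and replicate numbers come from the sample titles, slides from the file headers. Probe positions are those of the array files (mm9), without exon annotation.

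Each pair of groups was fitted in limma 3.58.1 (R 4.3.3) over probes that 2 or more arrays of 1 of the groups measured well above background, with Benjamini-Hochberg adjustment over all probes tested. Calls were made at 1.5-fold and an adjusted p under 0.05. Ligand pairs were contrasts in 1 fit of 9 groups. The script was tested on simulated data. The number of arrays limits the precision. The named genes are the 7 members, 3 genes of most like pattern for each, and at most 4 genes per pathway list, those called in the most comparisons. The members and lists were chosen with earlier results of these data known. Alternatives were other background corrections and scalings, all 27 arrays, no detection filter, 1 fit of 9 groups, the replicate number or slide as a block, other probes, and each array left out.

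Same-numbered arrays on shared slides deviated together in the 7 comparisons with 3 such pairs (correlations of 0.117 to 0.482). Slide and replicate number coincide there, so slide, marrow and culture cannot be told apart. With 2 pairs on shared slides, the correlations were 0.497 and 0.530 for naive against acute Pam3CSK4. They were 0.265 and 0.266 for acute against re-stimulated Pam3CSK4 and only 0.0802 and 0.0941 for naive against re-stimulated LPS. For acute LPS, on other slides, the numbers mark no shared slide. The correlations there were 0.00877 to 0.0382 with naive arrays and 0.0878 and 0.118 with re-stimulated LPS arrays.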

Additional observations from a re-analysis of the deposited data

Results flagged for a closer look

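Differences between ligands, in the fit of all 9 groups, stood out for 4 members. In acute cells Csf1r was lower with LPS than with CpG by -0.75 (adjusted p = 0.00361), than with Pam3CSK4 by -0.95 (0.000988) and than with Poly(I:C) by -0.84 (0.00232). All 3 were lost with median scaling (adjusted p = 0.116, 0.418 and 0.22), and those against CpG and Poly(I:C) also with all 27 arrays (0.108 and 0.075). The change of Csf1r from acute to re-stimulated cells was larger for LPS than for CpG by 1.13 (adjusted p = 0.0122), than for Pam3CSK4 by 1.00 (0.0233) and than for Poly(I:C) by 1.15 (0.0151). These 3 differences in change were lost with median scaling (adjusted p = 0.452, 0.638 and 0.609), with all 27 arrays (0.201, 0.0848 and 0.226) and without LPS re-stimulated replicate 2 (adjusted p = 0.0825, 0.114 and 0.0997), and the one against Pam3CSK4 also without Pam3CSK4 acute replicate 1 (0.0806) or 3 (0.0536) or Pam3CSK4 re-stimulated replicate 2 (0.0503). All 6 rest on the acute LPS arrays, whose slides no other group shares, so slide and ligand cannot be told apart.

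Csf1 was higher with acute LPS than with acute Pam3CSK4 by 3.49 (adjusted p = 0.0142), and by 1.56 (adjusted p = 0.35) without Pam3CSK4 acute replicate 3. Re-stimulated Pam3CSK4 cells had less Csf1 than re-stimulated Poly(I:C) cells, by -3.23 (adjusted p = 0.0167).

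Csf2 was higher with acute CpG than with acute Poly(I:C) by 4.00 (adjusted p = 0.0148). It was 1.49 and still passed with normexp correction, and was lost with all 27 arrays (0.0555) and without Poly(I:C) acute replicate 1 (0.0602) or 2 (0.0598). In re-stimulated cells Csf2 was higher than with Poly(I:C) by 3.19 for CpG (adjusted p = 0.0348) and 2.94 for Pam3CSK4 (adjusted p = 0.0398). No Poly(I:C) array was above background, and with normexp correction both calls were lost, at 0.94 (adjusted p = 0.147) and 0.76 (adjusted p = 0.224). Both were also lost with all 27 arrays and without the detection filter (adjusted p 0.0678 to 0.123). The CpG call was lost without CpG re-stimulated replicate 2 (0.0925) or 3 (0.123) or Poly(I:C) re-stimulated replicate 1 (0.153) or 2 (0.0767), and the Pam3CSK4 call without any 1 of the 6 arrays of these groups (0.0572 to 0.152). Csf3 was higher than with Poly(I:C) by 4.37 for CpG (adjusted p = 0.00686) and 4.29 for Pam3CSK4 (adjusted p = 0.00502). Without Poly(I:C) re-stimulated replicate 2 the CpG difference was 3.63 (adjusted p = 0.05, not below the threshold), and the Pam3CSK4 difference held with each array left out.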

How the results depend on the processing

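Of 5122 alternative values for single members, 4951 kept their direction and side of the threshold or stayed uncalled, 109 lost a call, 61 gained one and 1 reversed: Csf3r in CpG re-stimulated against naive cells, 0.26 with median scaling. Of the 4951, 237 changed sign while uncalled. The count includes ligand contrasts refitted without an array of a group outside the contrast, where the difference itself cannot change. The cause of the lost, gained and reversed calls was not tested. For acute LPS the 4 members called became 1 with median scaling, 2 with the 75th percentile and 2 with the replicate block, under which Csf1r (adjusted p = 0.0572) and Csf2rb (0.0551) were lost. For acute CpG the 1 became 3 with median scaling, with 1 fit of 9 groups and with slide as a random block, and 2 with normexp. For acute Poly(I:C) the 0 became 1 with median scaling, the 75th percentile, normexp, 1 fit of 9 groups and the random block. From acute to re-stimulated LPS the 4 became 0 with all 27 arrays. From acute to re-stimulated cells the 0 became 1 for Poly(I:C) with the replicate block and 1 for Pam3CSK4 with the random block. Against naive cells, re-stimulated LPS went from 0 to 1 with median scaling and the random block and 2 with normexp. Re-stimulated Pam3CSK4 went from 2 to 1 with the 75th percentile and without the detection filter and to 0 with the replicate block. Re-stimulated Poly(I:C) went from 0 to 1 with median scaling, normexp and 1 fit of 9 groups and to 2 with the random block. Between ligands, the 5 acute differences became 3 with median scaling, 2 with all 27 arrays and 8 with the replicate block. The 5 re-stimulated ones became 2 with all 27 arrays and 3 without the detection filter. The 3 differences in change became 0 with median scaling and with all 27 arrays and 1 with the 75th percentile and without the filter.

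Each array left out gave 1 to 4 called members for acute LPS and 0 to 2 for acute CpG. For acute Pam3CSK4 it gave 0 to 0, and for acute Poly(I:C) 0 to 1. From acute to re-stimulated cells it gave 2 to 4, 1 to 1, 0 to 0 and 0 to 0, and from naive to re-stimulated cells 0 to 2, 0 to 3, 0 to 3 and 0 to 1, in the same order of ligands. For ligand pairs it gave 4 to 8 in acute cells, 1 to 6 in re-stimulated cells and 0 to 4 for the change.

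The replicate block added calls for the 3 Csf2rb differences of acute LPS from the other acute ligands (-1.44, -1.42 and -1.26, adjusted p = 0.0088, 0.0171 and 0.0227) and for Csf3 from acute to re-stimulated LPS (adjusted p = 0.012), where the numbers mark no shared slide. Outside the members named here and above it changed no call. The median change of all probes ran from -0.0989 to 0.0611 in the main values, but from 0.109 to 0.779 with median scaling and from -0.451 to 0.609 with all 27 arrays, and member changes there are relative to it. Signal over background limits Csf2 and Csf3, which were well above background on 12 and 16 of 25 arrays.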

Other observations

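The genes whose group means ran most like each member, by Pearson correlation over the 9 group means among 13329 probes, are given as a description of points that share arrays and scaling. For Csf1 they were Clic4 (0.985), Defb34 (0.98) and Crkl (0.98). For Csf2 they were 1190003J15Rik (0.961), Ccl17 (0.953) and Pcf11 (0.95), and for Csf3 Rbm12 (0.934), the metallothionein Mt2 (0.928) and Camkk1 (0.924). Among the receptors, Csf1r ran with Bloc1s3 (0.96), Csf2ra with Wbscr27 (0.914), Csf2rb with Mapkapk3 (0.98) and Csf3r with 2610318N02Rik (0.993) and Rn4.5s (0.984).

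The 2 arrays without deposited values were rebuilt from their intensities together with the other 25. On LPS re-stimulated replicate 3 the log2 levels were 3.53 for Csf1, 3.40 for Csf2 and 5.60 for Csf3, and on Pam3CSK4 acute replicate 2 they were 4.78, 2.99 and 3.47. Csf1 on the first of these lay below both LPS re-stimulated arrays that were used. Csf1r was 17.87 and 18.02, Csf2ra 15.77 and 15.36, Csf2rb 14.23 and 14.84 and Csf3r 15.08 and 14.54. The shares of spots well above background were 92.4% and 99.9%.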
